A study of Mus musculus with 12 samples.

Results

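The 9 genes described here are Pax2, Pax8, Emx2, Lhx1, Sall1, Wt1, Meis1, Meis2 and Ovgp1. All but Ovgp1, a secreted product of the oviduct, encode regulators of the embryonic ducts that form the female tract and the kidney's collecting system, or of the tissue around them. The 9 genes were taken by gene symbol from the 26264 genes of the count files, and all 9 were found. RNA was read from 12 cultures of mouse endometrial epithelial organoids, balls of epithelium grown in a basement membrane gel from cells taken out of the uterus and used at passage 3. There were 4 groups of 3 libraries, namely Esr1 knockout (KO) with estrogen, KO without estrogen, wild type (WT) with estrogen and WT without estrogen. Esr1 encodes estrogen receptor alpha. The labels give neither the knockout allele, a Cre driver, the strain, the dose and duration of estrogen, nor the age of the mice behind each library, and they do not say whether replicates came from separate animals. A p-value below therefore reflects the spread among libraries, which may be technical. In bulk RNA, fewer cells that express a gene and less RNA per cell cannot be told apart.

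The Müllerian (paramesonephric) duct gives rise to the oviduct, uterus and upper vagina, and it grows along the mesonephric (Wolffian) duct. Both arise in the intermediate mesoderm, where PAX2 and PAX8, paired-box transcription factors, and LHX1, a LIM homeodomain factor, act early in duct formation. EMX2 is a homeodomain factor of the urogenital epithelium, and mice without it lack kidneys and genital tracts. WT1 and SALL1 are zinc finger factors, WT1 of the urogenital ridge and both of the kidney mesenchyme. MEIS1 and MEIS2 are homeodomain factors of the TALE class that bind DNA together with PBX and HOX proteins. OVGP1 is the glycoprotein that secretory cells of the oviduct release into its fluid, and its expression in mammals is known to rise with estrogen.

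Because the knockout targets a DNA-binding receptor, the promoters of 4 of these genes are shown first, as the 250 bases before the start of transcription. Pax8 and Meis1 were the members that fell and rose the most in KO, Emx2 shares its promoter region with an opposite-strand transcript, and Ovgp1 is the secreted product. The sequences are RefSeq promoters of build GRCm38.p6, which is older than the GRCm39 build of the counts. They lie at chr2:24475600-24475849 (minus strand) for Pax8, chr19:59458440-59458689 (plus strand) for Emx2, chr11:19018970-19019219 (minus strand) for Meis1 and chr3:105973552-105973801 (plus strand) for Ovgp1. They read 5′ to 3′ along the gene, and capitals mark GGTCA, the half-site of the estrogen response element.
Pax8: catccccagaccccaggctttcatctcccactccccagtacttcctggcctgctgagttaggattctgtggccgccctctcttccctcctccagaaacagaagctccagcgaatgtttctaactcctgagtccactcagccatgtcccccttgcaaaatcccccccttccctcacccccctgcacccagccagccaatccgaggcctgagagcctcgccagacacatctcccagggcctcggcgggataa
Emx2: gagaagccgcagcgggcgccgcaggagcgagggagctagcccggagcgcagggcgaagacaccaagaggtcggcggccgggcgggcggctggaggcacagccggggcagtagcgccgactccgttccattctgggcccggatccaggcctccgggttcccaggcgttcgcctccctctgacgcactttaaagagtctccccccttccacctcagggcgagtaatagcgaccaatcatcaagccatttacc
Meis1: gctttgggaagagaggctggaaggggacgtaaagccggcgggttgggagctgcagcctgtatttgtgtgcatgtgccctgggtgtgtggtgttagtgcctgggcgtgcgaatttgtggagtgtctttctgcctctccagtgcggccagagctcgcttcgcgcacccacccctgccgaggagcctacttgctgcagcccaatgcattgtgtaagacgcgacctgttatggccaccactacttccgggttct
Ovgp1: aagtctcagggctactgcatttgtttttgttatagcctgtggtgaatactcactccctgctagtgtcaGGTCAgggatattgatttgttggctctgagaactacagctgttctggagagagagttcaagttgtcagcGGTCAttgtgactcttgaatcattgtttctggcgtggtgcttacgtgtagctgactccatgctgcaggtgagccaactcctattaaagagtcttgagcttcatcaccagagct

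The full element GGTCANNNTGACC, searched on both strands, was in none of the 12 windows of the 8 matched genes, while 0.0639% of all 32851 windows of this length held it. Wt1 had no entry in the table. The half-site GGTCA, which is part of the full element, was found on either strand in the only windows of Ovgp1 and Lhx1. It was in no other of the 12 windows, while 35.2% of all windows held it. Ovgp1 held a pair of half-sites, which began at positions -182 and -113 from the start. TGACAG, a core site of MEIS proteins, was found on either strand only in the window of Lhx1, while 15.9% of all windows held it. A match is a run of letters and not a bound site, and elements farther away were not searched.

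Libraries held 75654191 to 108665407 counted reads. Levels are CPM, counts per 1e+06 counted reads after TMM scaling, which evens out differences in composition. Esr1 was at 19.7 ± 0.510 CPM in KO and 318.1 ± 33.5 in WT with estrogen, and at 16.4 ± 0.402 in KO and 307.7 ± 50.2 in WT without it (SD, n = 3 each). KO and WT differed in most genes. Of 16465 tested genes, edgeR's quasi-likelihood test called 70.8% with estrogen (36.7% higher and 34.1% lower in KO) and 71.7% without it (37.7% higher and 34.0% lower). Calls of 1 sign in both treatments made up 64.9%. A passed test is therefore common here, and sizes and directions carry more of the description. Without TMM, scaling to the library total put the median log2 difference of all genes at 0.21 with and 0.27 without estrogen, against 0.02 and 0.04 under TMM. With estrogen it called 7254 genes as higher and 4233 as lower in KO, against 6043 and 5612 under TMM, and without estrogen 7666 and 4029, against 6206 and 5605. Directions below are relative to TMM.

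Of the 9 genes, 7 had enough reads to be tested, and all 7 passed in both treatments, each in 1 direction. Pax2, Pax8, Emx2, Sall1 and Ovgp1 were lower in KO, as were 30.8% of all tested genes, and Meis1 and Meis2 were higher, as were 34.1%. In each of the 7 the 6 KO libraries did not overlap the 6 WT libraries, which held for 65.0% of tested genes (34.0% higher and 31.0% lower). Within a genotype, treated and untreated libraries deviated in matching pairs, as described below. The treatments may therefore not be independent of each other, and neither may the 6 libraries of a genotype. The share of members called was above that of all genes, but most genes were called. Lhx1 and Wt1 were near 0 in every library. The median log2 fold change of the 7 genes was -0.85 with and -0.72 without estrogen. These sizes were moderate for this data set, since without estrogen 26.1% of tested genes changed by more than Meis1 and 55.0% by more than Sall1.

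**Figure D1:**
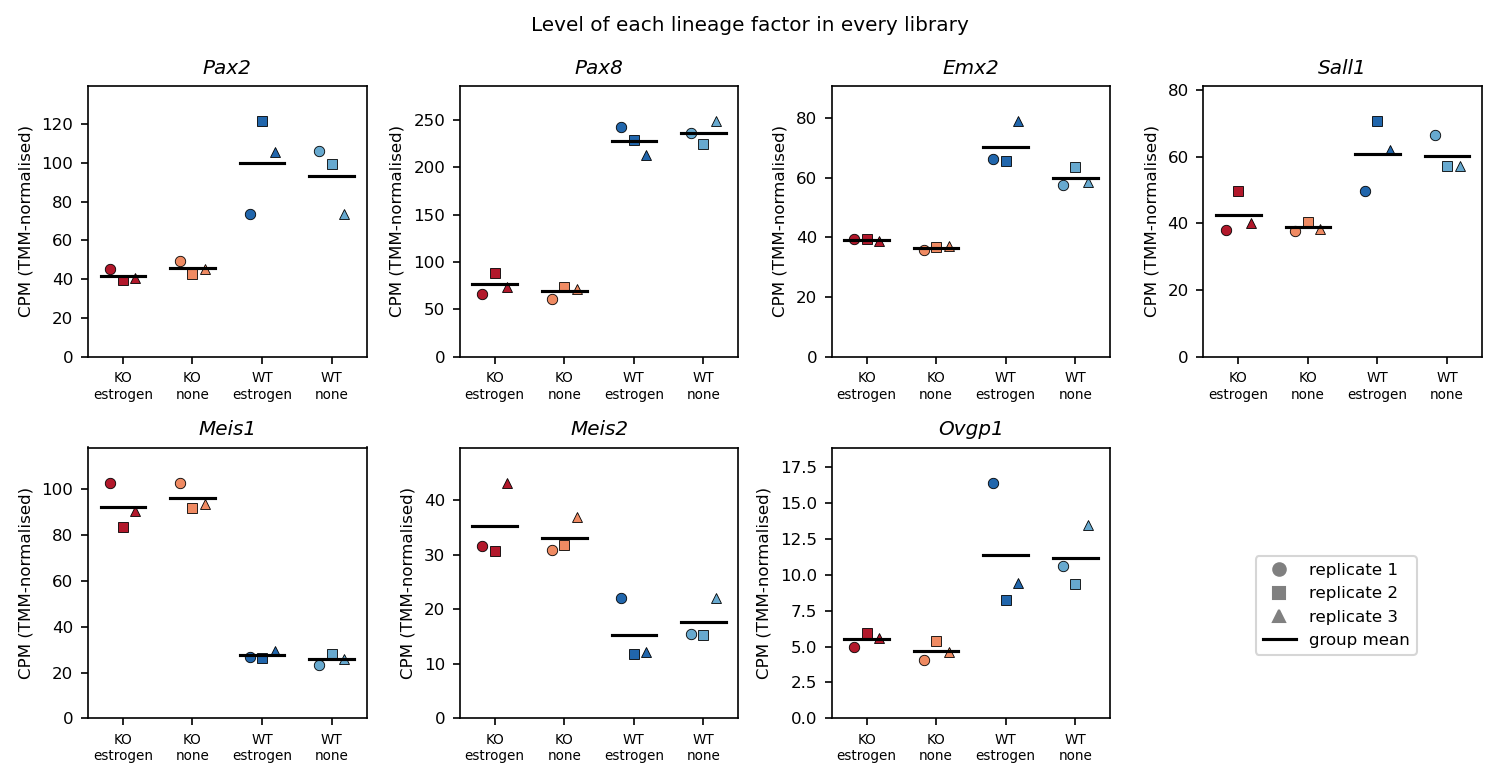
CPM of each tested gene in every library, by group, with a marker per replicate and a black line at the group mean; the vertical axes start at 0. The KO libraries lie below the WT libraries for Pax2, Pax8, Emx2, Sall1 and Ovgp1, and above them for Meis1 and Meis2, in both treatments.

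Pax8, which marks Müllerian epithelium and which mice need to form a functional uterus, was the most reduced of the 9. With estrogen it stood at 66.3, 88.6 and 74.0 CPM in KO, against 242, 228 and 212 CPM in WT. Without estrogen it stood at 60.7, 74.0 and 71.8 CPM in KO, against 236, 224 and 248 CPM in WT. The KO libraries were all far below the WT libraries, which lay close together. KO was 2.98-fold lower with estrogen (log2 -1.58 ± 0.113 SE, edgeR adjusted p = 3.88e-07) and 3.43-fold lower without it (log2 -1.78 ± 0.114 SE, edgeR adjusted p = 1.42e-07). Pax8 was still read in every KO library, so its RNA was reduced but not absent in the cultures as a whole. Whether single cells had lost it was not tested.

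Pax2, its close relative, which acts in both duct systems, was lower as well. Its levels with estrogen were 45.1, 39.7 and 40.5 CPM in KO, against 73.3, 121 and 105 CPM in WT. Its levels without estrogen were 49.1, 42.8 and 45.0 CPM in KO, against 106, 99.5 and 73.7 CPM in WT. KO libraries were tightly grouped while WT libraries were spread, with a coefficient of variation of 7.03% in KO and 24.4% in WT with estrogen. KO was 2.39-fold lower with estrogen (log2 -1.26 ± 0.177 SE, edgeR adjusted p = 7.27e-05) and 2.04-fold lower without it (log2 -1.03 ± 0.176 SE, edgeR adjusted p = 3.07e-04).

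Emx2 was lower by less, with little spread among KO libraries. Treated libraries had 39.3, 39.4 and 38.6 CPM in KO, against 66.3, 65.7 and 78.9 CPM in WT. Untreated libraries had 35.6, 36.6 and 37.1 CPM in KO, against 57.5, 63.7 and 58.6 CPM in WT. Every KO library was below every WT library. The change was 1.80-fold lower in KO with estrogen (log2 -0.85 ± 0.0752 SE, edgeR adjusted p = 1.97e-06) and 1.64-fold lower without it (log2 -0.72 ± 0.0752 SE, edgeR adjusted p = 6.62e-06). Emx2os, a transcript of the opposite strand, starts inside the promoter window printed for Emx2 and runs away from it. It stood at 8.53 ± 0.203 CPM in KO and 11.8 ± 1.43 in WT with estrogen, and at 8.02 ± 0.539 in KO and 10.6 ± 0.721 in WT without it (SD, n = 3 each). Emx2os was lower in KO by log2 -0.47 with (edgeR adjusted p = 0.00270) and -0.40 without estrogen (edgeR adjusted p = 0.00739). Reads were counted without strand, but RefSeq shows no overlap of the 2 genes.

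Sall1, which mice need for the ureteric bud to enter the kidney mesenchyme, was the least changed of the lowered genes. It had 37.9, 49.7 and 40.1 CPM in treated KO, against 49.8, 70.6 and 62.1 CPM in treated WT. It had 37.7, 40.4 and 38.3 CPM in untreated KO, against 66.5, 57.1 and 57.2 CPM in untreated WT. With estrogen the highest KO and the lowest WT library all but touched. KO was 1.43-fold lower with estrogen (log2 -0.52 ± 0.132 SE, edgeR adjusted p = 0.00451) and 1.55-fold lower without it (log2 -0.64 ± 0.132 SE, edgeR adjusted p = 0.00117). Scaled to the library total, Sall1 no longer passed with estrogen (log2 -0.33, edgeR adjusted p = 0.0513).

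Ovgp1, the oviduct glycoprotein, was present at low levels in all 12 libraries and was lower in KO. Treated KO libraries had 4.95, 5.96 and 5.56 CPM, against 16.4, 8.27 and 9.40 CPM in treated WT. Untreated KO libraries had 4.08, 5.36 and 4.63 CPM, against 10.6, 9.36 and 13.5 CPM in untreated WT. One treated WT library, replicate 1, stood above the others. The change was 2.07-fold lower in KO with estrogen (log2 -1.05 ± 0.244 SE, edgeR adjusted p = 0.00251) and 2.38-fold lower without it (log2 -1.25 ± 0.246 SE, edgeR adjusted p = 8.06e-04). Without that library, the treated change was log2 -0.69 (edgeR adjusted p = 0.00632). In WT the level with estrogen, 11.4 ± 4.41 CPM, differed from that without it, 11.1 ± 2.10 CPM, by less than the spread (SD, n = 3 each).

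Meis1 was the most raised of the 9. With estrogen it had 103, 83.5 and 90.7 CPM in KO, against 26.9, 26.5 and 29.6 CPM in WT. Without estrogen it had 103, 92.0 and 93.8 CPM in KO, against 23.2, 28.2 and 26.0 CPM in WT. The genotypes were far apart and each was tightly grouped. KO was 3.33-fold higher with estrogen (log2 1.74 ± 0.0968 SE, edgeR adjusted p = 6.12e-08) and 3.73-fold higher without it (log2 1.90 ± 0.0973 SE, edgeR adjusted p = 2.87e-08).

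Meis2 moved the same way by less and with more spread. Its treated libraries had 31.6, 30.8 and 43.2 CPM in KO, against 22.0, 11.8 and 12.2 CPM in WT. Its untreated libraries had 30.8, 31.8 and 36.9 CPM in KO, against 15.5, 15.3 and 22.0 CPM in WT. KO was 2.29-fold higher with estrogen (log2 1.20 ± 0.247 SE, edgeR adjusted p = 0.00117) and 1.88-fold higher without it (log2 0.91 ± 0.245 SE, edgeR adjusted p = 0.00610). The third relative, Meis3, went the other way, at 2.33 ± 0.876 CPM in KO and 8.26 ± 0.476 in WT with estrogen, and at 2.59 ± 0.483 in KO and 7.68 ± 0.686 in WT without it (SD, n = 3 each).

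Lhx1 and Wt1 could not be tested. Lhx1, without which mice form no Müllerian duct epithelium, had 0 reads in 11 libraries and 4 reads in treated WT replicate 1. Wt1 had 7 reads in all, 4 in treated and 3 in untreated KO, and 0 reads in each WT group, which allows up to 0.0112 CPM in treated and 0.0114 CPM in untreated WT at 3 reads over the group. Such Wt1 counts do not show a difference at this depth. The opposite-strand transcript Wt1os, also untested, had 5 reads in treated KO, all in replicate 2, and 2, 6 and 4 reads in untreated KO, against 0 in WT. Set against 3 reads over the WT group, its mean was 4.03-fold higher in untreated and 1.35-fold higher in treated KO. With so few reads, this difference is uncertain. Mesothelium expresses Wt1, and of its 5 markers Upk3b, Bnc1 and Upk1b were higher in KO, Msln was not called and Lrrn4 had 6 reads over all 12 libraries. Without estrogen, Upk3b stood at 6.37 ± 2.40 CPM in KO and 0.0781 ± 0.0719 in WT, Bnc1 at 9.39 ± 2.89 in KO and 0.0442 ± 0.0177 in WT, and Msln at 35.0 ± 8.54 in KO and 61.1 ± 32.5 in WT (SD, n = 3 each). The 5 markers summed to 40.0 to 86.0 CPM in KO and 24.7 to 87.0 CPM in WT.

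**Figure D2:**
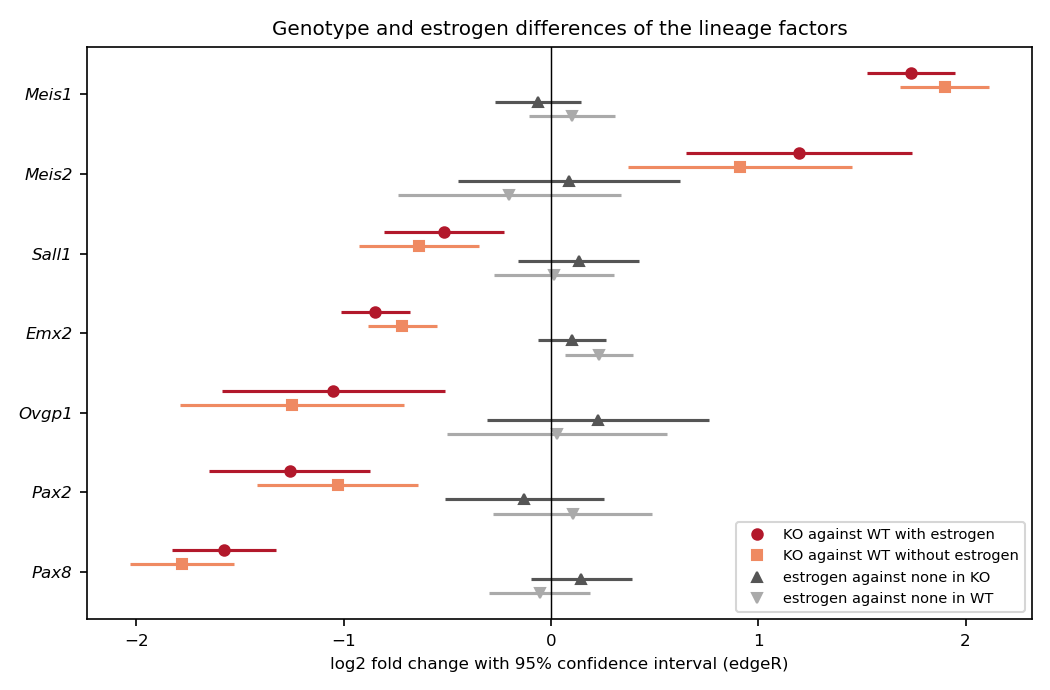
Log2 fold change (horizontal axis) of each tested gene with its 95% confidence interval, for KO against WT with and without estrogen and for estrogen against none in KO and WT. The genotype intervals lie to 1 side of 0 for all 7 genes, and of the estrogen intervals only that of Emx2 in WT does.

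By group mean, the members with estrogen were close to their untreated levels in either genotype. The submitters' note on treatment states that organoids of neither genotype responded. edgeR called 0% of 16465 genes in KO and 0% in WT, with 411 genes in KO and 883 in WT at an unadjusted p under 0.05, while DESeq2 called 19 higher and 1 lower in KO and 59 higher and 4 lower in WT. None of the 7 tested members was called by either tool. The log2 changes of the 7 ran from -0.13 for Pax2 to 0.23 for Ovgp1 in KO, and from -0.20 for Meis2 to 0.23 for Emx2 in WT. The 95% intervals bound the change of Pax8 between -0.10 and 0.39 in KO and between -0.30 and 0.19 in WT, and that of Ovgp1 between -0.31 and 0.76 in KO and between -0.50 and 0.56 in WT. These intervals come from the fit without a replicate block, and changes inside them remain possible. In WT, no fit paired the libraries by the matches across treatments described below.

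Of the 7, only Emx2 had treated and untreated libraries that did not overlap. It was at 65.7 to 78.9 CPM with and 57.5 to 63.7 CPM without estrogen in WT, where 8.47% of tested genes were so separated (5.00% higher and 3.47% lower). In KO it was at 38.6 to 39.4 CPM with and 35.6 to 37.1 CPM without estrogen, where 6.89% of tested genes were so separated (3.43% higher and 3.47% lower). The log2 change was 0.23 ± 0.0747 SE in WT (edgeR unadjusted p = 0.0104, adjusted p = 0.795) and 0.10 ± 0.0749 SE in KO (edgeR adjusted p = 1), so neither passed. Ordered by group mean, the other 6 genes had a gap between the genotypes and overlap between the treatments of each.

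Same-numbered KO libraries deviated together, although the labels do not say that numbers pair libraries. The estrogen comparison of KO was repeated with the replicate number as a block, a pairing read from these same data. Pair by pair, treated over untreated KO, the difference had 1 sign in all 3 pairs for 6 of the 7 members, which 36.6% of tested genes showed, a count made after the data were seen. Pax8, Emx2, Sall1 and Ovgp1 were higher in each treated library (16.9% of tested genes were), and Pax2 and Meis1 lower (19.6% were), Meis1 by only 0.286 CPM in replicate 1. Over the KO libraries alone, edgeR then called 143 genes higher and 337 lower, and none of the 7 members was among them (adjusted p of 0.214 or more). With the block within genotype over all 12 libraries, it called 0 in KO. The interaction of genotype and estrogen called none of the 7, with log2 estimates between -0.23 for Pax2 and 0.29 for Meis2. Over all tested genes edgeR called 0% for the interaction, with 726 at an unadjusted p under 0.05, and DESeq2 called 6 higher and 19 lower.

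Ratios of reads within a library do not depend on scaling, and 4 of them were compared between genotypes in both treatments, 8 tests in all. The reads of Meis1 exceeded those of Pax8 in 5 of 6 KO libraries and were a small part of them in WT. With estrogen the ratio was 1.55, 0.942 and 1.23 in KO, against 0.111, 0.116 and 0.140 in WT, and without estrogen 1.69, 1.24 and 1.31 in KO, against 0.0982, 0.126 and 0.105 in WT. These groups were wide apart, and the exact permutation p was 0.1 in either treatment (two-sided, adjusted p = 0.133), the smallest that 3 against 3 libraries allow. Meis1 and Pax8 were the members that rose and fell the most in these same libraries. A separation of their ratio therefore follows from those changes and is no further evidence for them. The ratio of Emx2 to Emx2os averaged 4.59 ± 0.0642 in KO and 5.97 ± 0.344 in WT with estrogen, and 4.56 ± 0.215 in KO and 5.68 ± 0.274 in WT without it (SD, n = 3 each; exact permutation p = 0.1, adjusted p = 0.133 in either).

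Pax8 outnumbered Pax2 in every library. With estrogen the ratio of their reads was 1.47, 2.24 and 1.83 in KO, against 3.30, 1.88 and 2.01 in WT, and the groups overlapped (exact permutation p = 0.4, adjusted p = 0.4). Without estrogen it was 1.24, 1.73 and 1.60 in KO, against 2.23, 2.25 and 3.37 in WT, with no overlap (exact permutation p = 0.1, adjusted p = 0.133). The ratio of Meis1 to Meis2 reads likewise overlapped only with estrogen. It was then 3.24, 2.72 and 2.10 in KO, against 1.22, 2.26 and 2.42 in WT (exact permutation p = 0.3, adjusted p = 0.343). Untreated libraries had 3.34, 2.90 and 2.54 in KO, against 1.49, 1.84 and 1.18 in WT (exact permutation p = 0.1, adjusted p = 0.133).

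**Figure D3:**
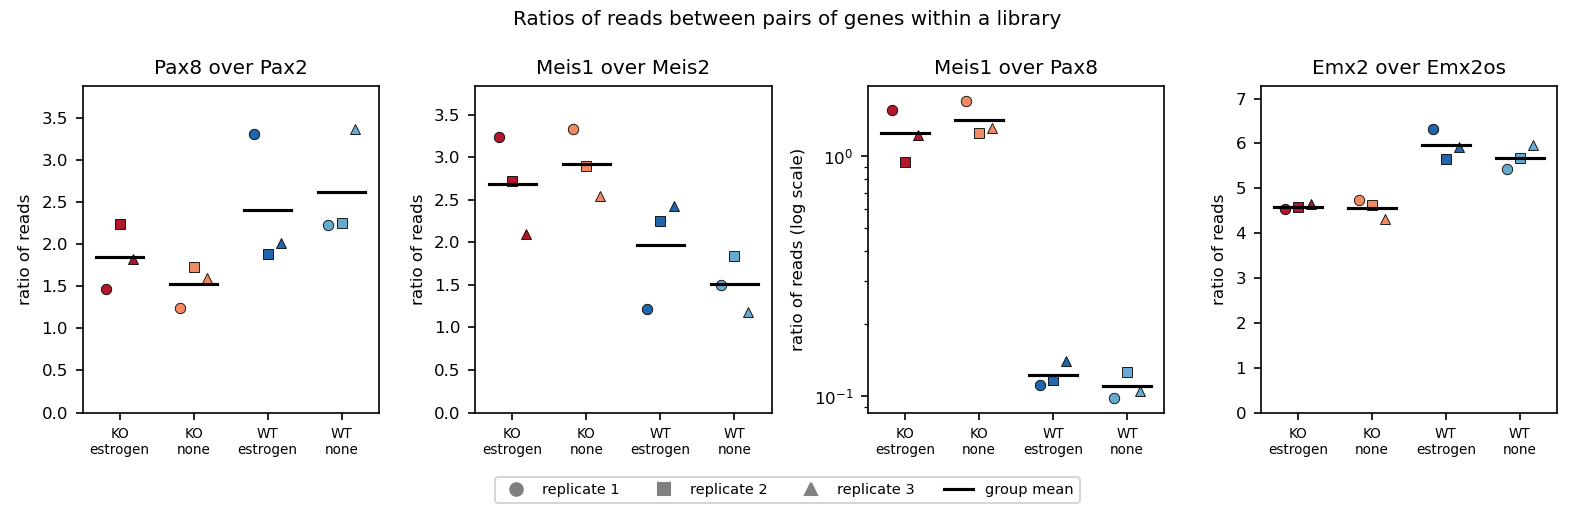
Ratio of the reads of a pair of genes in each library, by group, with a marker per replicate and a black line at the group mean; the axis for Meis1 over Pax8 is logarithmic. The KO libraries lie at 0.942 to 1.69 for Meis1 over Pax8, against 0.0982 to 0.140 in the WT libraries, while Pax8 over Pax2 and Meis1 over Meis2 overlap between genotypes with estrogen.

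Per kilobase of exon (union of GENCODE M21 exons, build GRCm38), Emx2 stood at 12.1 ± 0.251, Pax8 at 11.4 ± 1.18, Meis1 at 9.13 ± 0.553 and Pax2 at 8.44 ± 0.588 CPM per kilobase in KO without estrogen (SD, n = 3). Emx2 and Pax8 overlapped there, as did Meis1 and Pax2. In WT, Pax8 led at 37.5 ± 2.47 CPM per kilobase with and 39.0 ± 1.99 without estrogen, ahead of Emx2, Pax2, Sall1, Ovgp1, Meis1 and Meis2. By its mean, Meis1 was the third in KO and the sixth in WT, but it overlapped Pax2 in both KO groups, Sall1 in treated KO and Ovgp1 in both WT groups. Taking the longest transcript as the length put Pax8 first in KO too, at 20.3 ± 2.11 CPM per kilobase without estrogen, and Meis1 the second there, so this order depends on which exons are used.

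**Figure D4:**
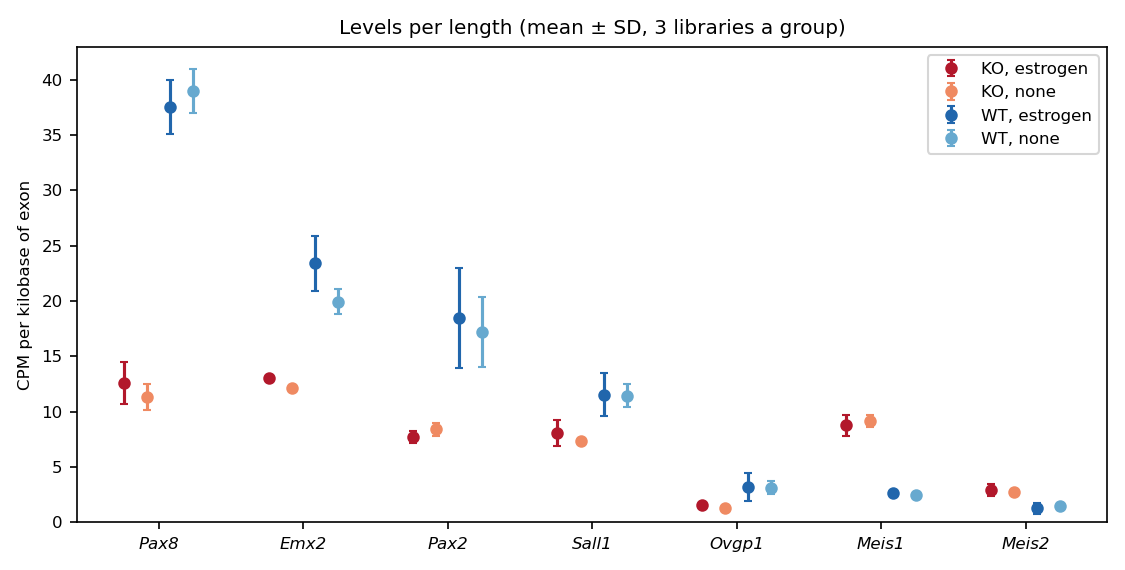
CPM per kilobase of exon (mean ± SD, n = 3 libraries a group) of the 7 tested genes in the 4 groups. Pax8 lies between 11.4 and 12.6 in KO and between 37.5 and 39.0 in WT, and Meis1 lies above its WT level in KO.

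The WT libraries differed among themselves in a way that touched several members. Treated WT replicate 1 and untreated WT replicate 3 had the lowest Pax2 (73.3 and 73.7 CPM) of the 6 WT libraries and the highest Meis2 (22.0 in both), Ovgp1 (16.4 and 13.5 CPM) and Pax8 (242 and 248 CPM). Across tested genes, the deviations of these 2 libraries from their group means correlated with r = 0.59. The other WT libraries matched across treatments as strongly, treated replicate 2 with untreated replicate 1 (r = 0.59) and treated replicate 3 with untreated replicate 2 (r = 0.71), so these 2 were not alone in this. The estrogen comparison of WT was not repeated with these matches as pairs, so small changes shared by the pairs could have been missed. Without both, KO differed from WT with estrogen by log2 -1.44 for Pax2, 1.55 for Meis2 and -0.69 for Ovgp1, and without estrogen by -1.17, 1.10 and -1.09. All 7 members still passed in both treatments (edgeR adjusted p of 0.00334 or less). The cause of the split was not tested.

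Markers of other cell types also moved with the genotype. All 5 basal cell markers and all 6 multiciliated cell markers were higher in KO. The summed level of the basal markers was 4215 to 10232 CPM in treated and 5446 to 10062 CPM in untreated KO, against 1.92 to 3.73 CPM in treated and 2.44 to 3.44 CPM in untreated WT. That of the multiciliated markers was 561 to 787 CPM in treated and 659 to 959 CPM in untreated KO, against 1.00 to 1.20 and 0.819 to 1.18 CPM in WT. In both treatments, KO replicate 1 had the highest basal and the lowest multiciliated sum of the KO libraries, with the lowest Pax8 and Ovgp1 and the highest Meis1 and Pax2. KO replicate 2 had the lowest basal and the highest multiciliated sum, with the highest Pax8 and Ovgp1 and the lowest Meis1 and Pax2. The part of these cell types in the members' differences was not tested.

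Simple epithelial markers (Epcam, Cdh1, Krt8, Krt18 and Krt19) summed to 2988 to 3560 CPM in treated and 2939 to 3426 CPM in untreated KO, against 3598 to 4103 and 3495 to 4026 CPM in WT. Of these, Epcam and Krt18 were lower in KO in both treatments, Krt8 was called higher without estrogen (log2 0.52, edgeR adjusted p = 0.00770) and Krt19 with it (log2 0.84, edgeR adjusted p = 0.00971). The 10 stromal markers summed to 11.2 CPM or less in KO and 5.33 CPM or less in WT, and the 5 immune markers to at most 0.274 CPM in KO and 8.19 CPM in WT. The 5 smooth muscle markers reached at most 1.37 CPM in KO and 0.947 in WT, and the 5 endothelial markers 1.05 in KO and 2.86 CPM in WT. The 6 nephron progenitor and podocyte markers summed to 27.6 to 32.4 CPM in KO and 25.8 to 41.4 CPM in WT, with 1 of 3 tested higher and 2 lower in KO. The 7 kidney tubule markers summed to 8.14 to 17.7 CPM in KO and 8.11 to 12.9 CPM in WT, but these like sums hold opposite changes, with 3 of 6 tested higher and 2 lower in KO. Of 4 oviduct markers, Sox17 and Foxj1 were higher and Krt7 and Upk1a lower in KO.

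The wider set of duct formation genes moved both ways. Of 13 tested genes of 15, 7 were higher and 5 lower in KO in both treatments. Over all tested genes, 34.1% were higher and 30.8% lower in both treatments. A list that moves both ways is therefore not unusual here, which holds for the lists below too. The median log2 fold changes were 0.51 with and 0.38 without estrogen, against 0.02 and 0.04 over all genes. Dach1, a nuclear factor that works with EYA proteins, was higher, at 6.52 ± 1.38 CPM in KO and 0.389 ± 0.327 in WT without estrogen (SD, n = 3 each). Gdnf, the ligand that draws out the ureteric bud, had 70 reads in treated and 102 in untreated KO against 0 in WT. Set against 3 reads over the WT group, Gdnf was 18.5-fold higher in treated and 34.7-fold higher in untreated KO. Its receptor components went the other way, Gfra1 at 0.658 ± 0.309 CPM in KO and 10.4 ± 4.19 in WT, and Ret at 7.48 ± 1.09 in KO and 53.1 ± 28.8 in WT without estrogen. These 4 genes passed in both treatments at an edgeR adjusted p of 0.00138 or less. Scaled to the library total, 3 in place of 5 genes of the list were lower.

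Genes known as targets of PAX2 or PAX8 in kidney or thyroid were split, 3 of 5 tested being lower and 2 higher in KO. Among all tested genes 30.8% were lower and 34.1% higher. Cdh16, a kidney cadherin, stood at 5.66 ± 1.38 CPM in KO and 42.7 ± 17.9 in WT with estrogen, and at 4.17 ± 0.529 in KO and 63.2 ± 23.2 in WT without it (SD, n = 3 each). Ret and the iodide transporter Slc5a5 were lower too, Slc5a5 at 0.260 ± 0.0782 CPM in KO and 1.44 ± 0.515 in WT without estrogen. Gata3, a factor of the nephric duct, was higher at 3.90 ± 1.37 CPM in KO and 0.519 ± 0.309 in WT without estrogen. Tg, the thyroid hormone precursor, had 0 reads in WT and stood at 1.09 ± 0.514 CPM in untreated KO. That was 95.9-fold above 3 reads over the WT group. These genes passed at an edgeR adjusted p of 0.00405 or less, and the median log2 fold change of the list was -2.26 with and -2.46 without estrogen. Of other PAX genes only Pax5, a B cell factor, could be tested, with 96 reads in untreated KO against 0 in WT. It was called higher, 32.3-fold above 3 reads over the WT group, and a filter of 1 CPM in 3 libraries leaves it untested. Of 4 PAX cofactors, 2 were higher, as were 34.1% of all tested genes. In KO and WT without estrogen, the corepressor Tle4 stood at 11.3 ± 1.35 and 0.337 ± 0.152 CPM and Paxip1 at 46.3 ± 4.15 and 32.7 ± 0.504 CPM, and the list medians were 0.19 with and 0.14 without estrogen.

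Among 13 tested TALE homeobox genes other than Meis1 and Meis2, 6 were higher and 4 lower in KO (34.1% and 30.8% of all tested genes were). Their median log2 fold changes were 0.67 with and 0.19 without estrogen. Pbx3, which encodes a PBX partner of MEIS proteins, was higher at 14.8 ± 1.05 CPM in KO and 2.49 ± 0.195 in WT without estrogen. Pknox2, a relative of MEIS, was lower at 0.175 ± 0.0917 CPM in KO and 14.4 ± 6.35 in WT without estrogen. Irx2 had 0 reads in WT and was higher in untreated KO, at 0.487 ± 0.244 CPM, 42.8-fold above 3 reads over the WT group. Irx5 was higher at 0.750 ± 0.233 CPM in KO and 0.0998 ± 0.0546 in WT without estrogen, and Mkx lower at 0.0397 ± 0.0502 in KO and 0.439 ± 0.00585 in WT. All of these passed at an edgeR adjusted p of 0.0127 or less.

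HOX genes of the Müllerian axis, whose products MEIS and PBX proteins accompany, were close to 0 in both genotypes. Hoxa9, Hoxa10 and Hoxa11 had 6, 8 and 10 reads over all 12 libraries, Hoxa13 had 0, and Hoxd9 to Hoxd13 had between 0 and 15 each. Hoxa10 and Hoxa11 pattern the uterus, from which the labels say these organoids came. The cultures are epithelial and had low sums of stromal markers, and the reason for the low HOX counts was not tested. Of 11 tested genes of Müllerian regression and patterning, 3 were higher and 3 lower in KO (34.1% and 30.8% of all tested genes were). The medians were 0.22 with and 0.33 without estrogen. Sox17, a factor of the uterine epithelium and its glands, was higher at 65.5 ± 12.6 CPM in KO and 21.6 ± 7.66 in WT with estrogen, and at 55.4 ± 9.54 in KO and 25.3 ± 14.8 in WT without it. The planar polarity gene Vangl2 was higher at 29.4 ± 1.48 CPM in KO and 14.0 ± 1.50 in WT without estrogen. Ctnnb1, which encodes beta-catenin, was lower at 1012 ± 35.8 CPM in KO and 2099 ± 66.9 in WT without estrogen, and the ligand Wnt5a at 38.5 ± 4.69 in KO and 58.3 ± 11.2 in WT. These 4 passed at an edgeR adjusted p of 0.0164 or less. Scaled to the library total, 1 gene of this list was lower in place of 3, and without treated WT replicate 3 there were 5 higher in place of 3.

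**Figure D5:**
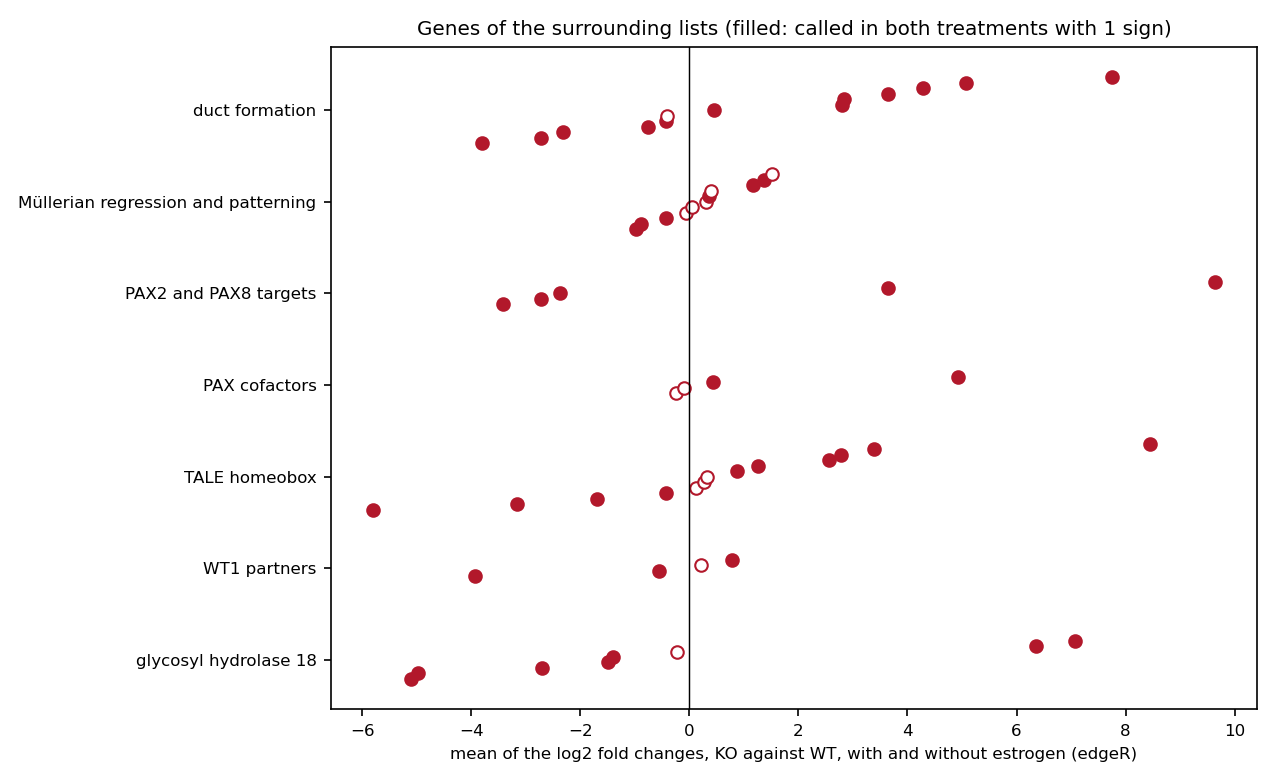
Mean of the 2 log2 fold changes of KO against WT (with and without estrogen) for each tested gene of 7 surrounding lists; filled circles mark genes called in both treatments with 1 sign. Each list with 5 or more tested genes has filled circles on both sides of 0; for Gdnf, Tg and Irx2, which had 0 WT reads, the position depends on the prior count of the fit.

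The chitinase-like family to which OVGP1 belongs was likewise split, with 2 of 8 tested genes higher and 5 lower in KO (34.1% and 30.8% of all tested genes were). Its median log2 fold changes were -1.53 with and -1.36 without estrogen. Chil1, a secreted chitin-binding protein, stood at 8477 ± 1565 CPM in KO and 60.8 ± 44.5 in WT with estrogen, and at 6849.7 ± 825 in KO and 53.2 ± 37.2 in WT without it. Chit1, a chitinase, was higher at 61.6 ± 27.4 CPM in KO and 0.963 ± 0.480 in WT without estrogen. Chil4 was lower at 0.705 ± 0.252 CPM in KO and 36.7 ± 15.8 in WT without estrogen, and Chil6 at 0.149 ± 0.0371 in KO and 5.40 ± 1.79 in WT. These 4 passed at an edgeR adjusted p of 2.86e-04 or less. Chil genes resemble each other closely, and reads that map to several places were not counted, so their levels are uncertain.

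Of 4 partners of WT1, 2 were lower and 1 higher in KO (30.8% and 34.1% of all tested genes were). Their medians were -0.10 with and -0.26 without estrogen. The corepressor Basp1 was lower at 3.96 ± 1.97 CPM in KO and 77.1 ± 20.0 in WT without estrogen, and Wtap at 48.2 ± 2.13 in KO and 72.0 ± 2.31 in WT. Pawr was higher at 42.1 ± 1.71 CPM in KO and 23.8 ± 4.15 in WT without estrogen. These 3 passed at an edgeR adjusted p of 3.09e-04 or less, and 2 genes of the list were higher when scaled to the library total. The relatives of EMX2, LHX1 and SALL1 were mostly at low counts: 2 of 14 EMX and LIM genes and 1 of 3 SALL genes could be tested, and neither Ldb1, Lhx5 nor Sall2 was called in both treatments, although Sall2 was called higher in KO when scaled to the library total or without treated WT replicate 3. Lhx5 was called lower in KO with estrogen (log2 -4.08, edgeR adjusted p = 0.0263). Of the EMX and LIM genes, 1 was lower in both treatments without untreated KO replicate 1, and 1 was higher with no filter beyond 1 read.

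Genes whose profile over the 12 libraries was most like that of a member were found by Pearson's correlation of log2(CPM + 0.5), as a description over libraries that the genotype divides. F3, Lrp10 and Irf8 came nearest to Pax8 (r of 0.998), and Inmt, Cherp and Tsc2 to Pax2 (r of 0.986 to 0.988). For Emx2 they were Cxcl14, ccdc198 and Bcam (r of 0.994 to 0.996), and for Meis1 Homer2, Idh2 and Gm15987 (r of 0.998). Wee1, Ndrg1 and Gadd45b stood nearest to Meis2 (r of 0.983 to 0.986). Cubn and Ulk3 stood near to Ovgp1 (r of 0.983 and 0.981), and Lmtk2, Zbtb44 and Nek9 to Sall1 (r of 0.968 to 0.977).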

How the data were processed

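Per the labels' protocols, a Direct-zol kit gave the RNA, a TruSeq mRNA kit the libraries, and a NovaSeq paired reads. The deposited files hold raw counts, whole reads per gene symbol. The authors counted them with featureCounts 2.0.0 over exons of RefSeq genes, per the file headers, each mate on its own, without strand, and without reads that map to several places or overlap several genes. The submitters' processing notes name featureCounts 2.0.3, STAR 2.7.10b, Trim Galore 0.6.6, FastQC 0.11.7 and build GRCm39. In RefSeq on GRCm38, noncoding genes overlap Pax2, Pax8, Meis1, Meis2 and Sall1, so reads may be shared or lost there.

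Genes kept by filterByExpr (minimum count 10, minimum total 15) numbered 16465 of 26264. They were scaled by TMM and fitted in edgeR 4.0.16 (R 4.3.3, limma 3.58.1) by a robust quasi-likelihood model of 4 groups over 12 libraries. Tests were two-sided, with Benjamini-Hochberg adjustment over all tested genes and a threshold of 0.05. The SE is the size of the log2 change over the square root of F. The steps were run on simulated data in which few genes changed, in untreated KO only. Most genes were called in the real data, so that run does not bear on the scaling. The alternatives were other scalings, DESeq2 1.42.0, other count filters, fits of fewer groups, a replicate block and leaving out libraries. The members and gene lists were chosen with earlier results of these data known. Up to 4 called genes per list were named, by the size of their mean change, with Pbx3, Meis3, Slc5a5 and markers given beside a member, and up to 3 of the nearest genes per member. Some genes that this rule picks are not reported here. Same-numbered KO libraries correlated in their deviations by 0.80, 0.71 and 0.60, each best with its own number. Same-numbered WT libraries correlated by -0.31, -0.27 and -0.61, while WT libraries of unlike numbers reached 0.71. Pairing by number in KO was thus read from these data and is not given by the labels, and numbers do not pair the WT libraries. No 2 replicates were alike within sampling noise (chi-square over degrees of freedom 46.5 to 305). Floors of 3 reads treat each read as a separate molecule. Mates were counted each on its own, so a fragment can add 2 reads, and reads lack molecular identifiers. The floors may therefore be too low, and the folds set against them too high.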

Additional observations from a re-analysis of the deposited data

How the results depend on the processing

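All 7 genotype differences of the members kept their direction under each alternative, and their call too, apart from Sall1 with estrogen under library size alone (adjusted p = 0.0513). With 1 library left out, the log2 fold change of KO against WT stayed between -1.70 and -1.48 for Pax8 with estrogen and between -1.83 and -1.70 without it, and between 1.65 and 1.80, and 1.83 and 1.97, for Meis1. No member was called for estrogen or the interaction under an alternative, but counts over all genes moved. DESeq2 called 19 genes higher and 1 lower with estrogen in KO, 59 and 4 in WT, and 6 and 19 in the interaction. Same-numbered WT libraries did not deviate together, so a replicate block joins unlike libraries in WT. The block within genotype called 7 higher with estrogen in WT. KO alone with the block, added after the data were seen, gave 143 higher and 337 lower. Without both WT libraries that stand apart, also added, 43 were higher and 4 lower with estrogen in WT and 10 lower in the interaction. Leaving out 1 library gave 0 to 4 higher in KO (4 without untreated KO replicate 3), 0 to 45 higher and 0 to 9 lower in WT, most of them without treated WT replicate 1, and 0 to 6 lower in the interaction. Small estrogen changes turned sign: in WT, Sall1 with the replicate block crossed with the groups (-0.00058), and Ovgp1 with the block within genotype (-0.024) and without both WT libraries (-0.18). With 1 library left out, the ranges that crossed 0 were -0.33 to 0.21 for Ovgp1, -0.11 to 0.14 for Sall1 and -0.057 to 0.29 for Pax2 in WT, -0.14 to 0.0062 for Meis1 and -0.086 to 0.17 for Meis2 in KO, and -0.0065 to 0.24 for Sall1 in the interaction. The cause was not tested. Depth limits Lhx1 and Wt1, and with 3 libraries a group an exact test of 1 ratio cannot reach the threshold.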
